A study of Rattus norvegicus with 109 samples.

Results

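Th (tyrosine hydroxylase) and Dbh (dopamine beta-hydroxylase) were the 2 catecholamine synthesis enzymes among the 19 mRNAs of a quantitative PCR panel, and they were taken by their gene names from the normalised table of 109 laser-captured sections of the rat nucleus tractus solitarius. Of the other enzymes, transporters, receptors and transcription factors of a list of catecholamine genes, none was on the panel. The panel also held no marker of neurons in general, of glia or of blood vessels, so the labelled tissue and its cell make-up could be set only against Th and Dbh themselves.

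Noradrenaline is made from tyrosine in successive steps. Th carries out the first and rate-limiting step, from tyrosine to L-DOPA, and Dbh, an enzyme of the secretory vesicles, converts dopamine to noradrenaline. The nucleus tractus solitarius is the brainstem relay that receives the baroreceptor afferents, and it contains noradrenergic and adrenergic neurons, which express both enzymes. Dopaminergic neurons express Th without Dbh.

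The rats were SHR, an inbred spontaneously hypertensive strain, and WKY, the normotensive strain usually set against it. Rats labelled Cocktail received 25 µL of a mix of LNA inhibitors (locked nucleic acid oligonucleotides) against the microRNAs miR-376a and miR-135a at 10 µM, rats labelled Scrambled received a negative-control LNA, and rats labelled Sham underwent the cannula procedure with an empty needle. By animal number, SHR Cocktail held 5 rats with 17 sections, SHR Scrambled 2 rats with 15 sections and SHR Sham 1 rat with 27 sections. WKY Cocktail held 4 rats with 27 sections, WKY Scrambled 5 rats with 15 sections and WKY Sham 3 rats with 8 sections. The design text of the series gives 4 to 5 rats per group, more than the animal numbers give for SHR Scrambled, SHR Sham and WKY Sham. The animal numbers were used, and every n and SD over rats rests on them. All 3 procedures included brain surgery, and no untreated, unoperated rat enters the comparisons. The animal number 4614 occurs under both WKY Cocktail and WKY Scrambled, so the 20 sets of sections come from 19 numbers. The inhibited microRNAs are shown because they define the Cocktail groups, with the seed, bases 2 to 8, in capitals (RefSeq, GRCr8). The labels do not say which arm each inhibitor targets, so both mature arms are given. The 4 seeds differ from each other.
rno-miR-376a-3p: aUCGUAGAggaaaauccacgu
rno-miR-376a-5p: gGUAGAUUcuccuucuaugag
rno-miR-135a-5p: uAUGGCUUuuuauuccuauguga
rno-miR-135a-3p: uGUAGGGAuggaagccaugaaa

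Values are minus delta Ct, a log2 scale on which 1 unit is a doubling of template at full PCR efficiency and 0 is about the middle gene of the section. Th was measured in all but 6 of the 109 sections and Dbh in all but 13. Threshold cycles (Ct, the PCR cycle at which product is detected, so that a later cycle means less template) ran from 7.50 to 20.7 for Th and from 11.1 to 26.3 for Dbh, within a run of 30 cycles. The median Ct of a section lay between 10.8 and 23.1, a measure of how much template a section held. The 9 sections with a median Ct above 18 were all from WKY rats. Groups were compared with the rat as the replicate, after sections of a rat were averaged, except in the alternative fits and the relations between genes that are said to use sections. Chip and run are not labelled for a section, and a run effect therefore cannot be told apart from strain.

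Th lies on the minus strand of chromosome 1, from 207500959 to 207508276, and Dbh on the plus strand of chromosome 3, from 30886313 to 30903313 (RefSeq, GRCr8). The sequence before each gene's outermost annotated start is shown because the levels of both mRNAs varied together over sections. The cause of that shared variation, and any part of these sequences in it, was not tested. Capitals mark the matches found on either strand to the cAMP response element TGACGTCA and to the AP-1 motif TGANTCA, which do not overlap each other.
Th promoter, chr1:207508277-207508468, minus strand: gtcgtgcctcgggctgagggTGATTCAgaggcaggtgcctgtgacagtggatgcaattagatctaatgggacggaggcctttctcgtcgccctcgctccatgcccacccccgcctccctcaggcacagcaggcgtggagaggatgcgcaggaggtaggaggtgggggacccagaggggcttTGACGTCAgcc
Dbh promoter, chr3:30886078-30886312, plus strand: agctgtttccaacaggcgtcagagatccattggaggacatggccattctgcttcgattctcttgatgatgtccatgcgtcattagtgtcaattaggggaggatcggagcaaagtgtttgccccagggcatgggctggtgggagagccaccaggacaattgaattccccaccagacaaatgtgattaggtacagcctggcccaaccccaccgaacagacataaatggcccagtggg

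The 192 bases before Th held TGACGTCA at 11 to 4 bases before the start, and 0.822% of 33469 promoter windows cut to 192 bases hold this motif. They also held TGATTCA, a match to TGANTCA, at 172 to 166 bases before the start, where 5.00% of the windows hold a match. The 235 bases before Dbh held neither motif, which occur in 1.44% and 5.99% of windows of that length. Neither window held the homeodomain core TAATTA or the TATA motif TATAAA, which occur in 4.03% and 9.63% of windows of 192 bases and in 4.68% and 12.5% of windows of 235 bases. Every window was cut to its first bases from the upstream end and not at its own gene's outermost start. The shares can thus cover bases placed differently from those before Th and Dbh. The motif matches are matches of letters. Sites that depart from these letters were not searched for, so an absent match is not an absent site, and binding was not measured.

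Th did not pass the test in any of the 8 comparisons made between strains and procedures. Its means over rats, from high to low, were 3.95 ± 0.82 in WKY Cocktail (SD, n = 4), 3.72 ± 1.69 in SHR Cocktail (SD, n = 5), 3.41 ± 1.80 in WKY Scrambled (SD, n = 5), 2.46 in SHR Sham (n = 1), 2.24 ± 0.99 in WKY Sham (SD, n = 3) and 1.74 ± 4.26 in SHR Scrambled (SD, n = 2). No neighbours in this order differed by more than the SD of the rats. In bulk sections such as these, fewer catecholaminergic neurons and less RNA per neuron cannot be told apart.

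Dbh was lower in SHR than in WKY rats over the control procedures, and under Cocktail the difference had the same direction but missed the threshold. Its means were -0.55 ± 0.66 in WKY Cocktail (SD, n = 4), -1.61 ± 2.09 in WKY Scrambled (SD, n = 5), -1.93 ± 1.38 in WKY Sham (SD, n = 3), -2.85 ± 1.50 in SHR Cocktail (SD, n = 5), -5.33 in SHR Sham (n = 1) and -5.65 ± 2.90 in SHR Scrambled (SD, n = 2). All 3 SHR means lay below all 3 WKY means, although the neighbours across the strains, -2.85 in SHR Cocktail and -1.93 in WKY Sham, differed by less than the SD of the rats within either group. The step between SHR Sham and SHR Cocktail was larger than the SD of SHR Cocktail, but SHR Sham is 1 rat.

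**Figure D1:**
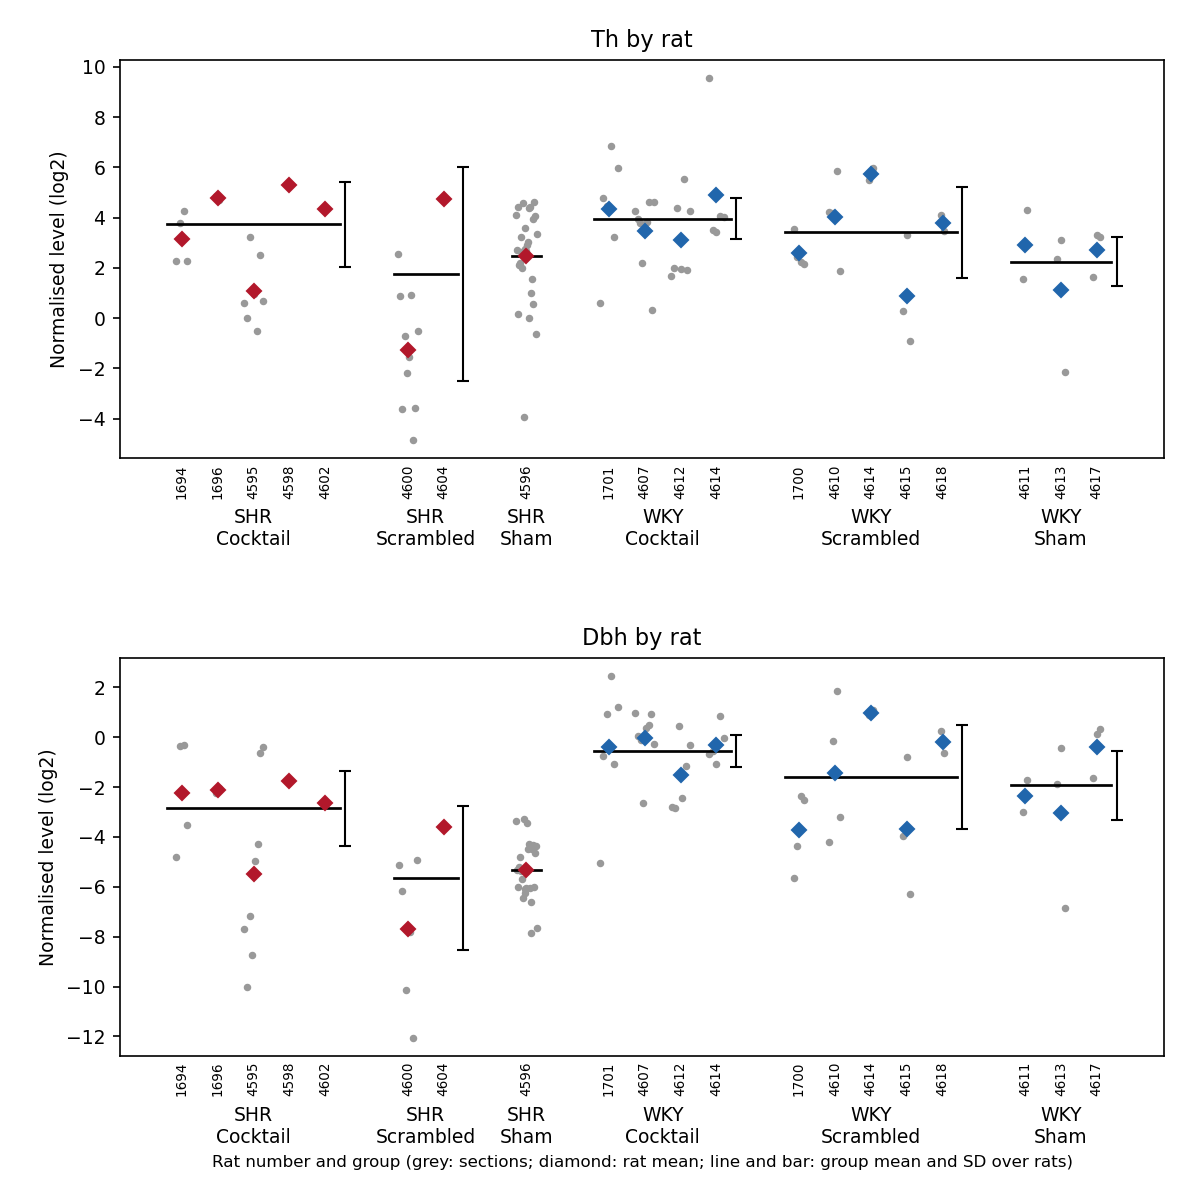
Th and Dbh as minus delta Ct (log2, vertical axis) by rat, strain and procedure, with grey points for sections, diamonds for rat means, a line at each group mean and a bar for the SD over rats. The Dbh means of all 3 SHR groups lie below those of the WKY groups, from -5.65 to -2.85 against -1.93 to -0.55, while the Th means of the strains interleave.

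The first strain comparison used the rats without microRNA inhibition, as the average of the Scrambled and Sham means in each strain. Dbh, the vesicular enzyme, was -7.70 and -3.61 in the SHR Scrambled rats and -5.33 in the SHR Sham rat, against -3.72, -1.44, 0.99, -3.68 and -0.20 in the WKY Scrambled rats and -2.36, -3.05 and -0.39 in the WKY Sham rats. The highest SHR rat, at -3.61, lay just above the WKY Scrambled rats at -3.72 and -3.68, and the other SHR rats lay below every WKY rat. The -7.70 of SHR Scrambled rat 4600 rests on 6 of its 14 sections, since Dbh was missing in the others. Dbh was 13.2-fold lower in SHR rats (log2 difference -3.72, SE 1.11, 95% interval -6.07 to -1.38, limma adjusted p = 0.0117). In this comparison 47.4% of the 19 genes passed an adjusted p under 0.05, so a strain difference was common on the panel. The call needed SHR Scrambled rat 4600: without it the difference was -2.70 (limma adjusted p = 0.0848). The two-sided exact permutation test exchanged the strains of the 11 rats within Scrambled and within Sham, in 84 arrangements. This permutation test gave p = 0.0476 for Dbh, or 0.113 after adjustment over all 19 genes, with 0.0119 the smallest p it can give.

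Th in the same rats was -1.27 and 4.75 in SHR Scrambled and 2.46 in SHR Sham, against 2.59, 4.04, 5.74, 0.89 and 3.79 in WKY Scrambled and 2.91, 1.11 and 2.72 in WKY Sham. The strains overlapped, and the SHR rats included both a rat below all WKY rats and a rat above all but 1 of them. The log2 difference was -0.73 (SE 1.19, 95% interval -3.24 to 1.79, limma adjusted p = 0.625). The interval is wide enough to hold a several-fold difference in either direction. Without rat 4600 the estimate was 0.78.

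Under Cocktail, with 5 SHR and 4 WKY rats, Dbh was -2.25, -2.13, -5.49, -1.78 and -2.63 in SHR and -0.38, -0.03, -1.51 and -0.29 in WKY. Every SHR rat lay below every WKY rat, the nearest pair being -1.78 in SHR and -1.51 in WKY. Such separation was found for 9 of the 17 genes measured in all of these rats, 52.9%, so it does not set Dbh apart on the panel. The log2 difference for Dbh was -2.30, or 4.93-fold lower in SHR (SE 1.05, 95% interval -4.50 to -0.10, limma p = 0.0416, adjusted p = 0.0879), and it missed the threshold that 36.8% of the genes passed. The two-sided exact permutation test gave p = 0.0159 for Dbh, adjusted p = 0.0335. Over the control procedures the rats of both strains did not overlap for 23.5% of the genes, and Dbh was not among them.

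Th under Cocktail was 3.14, 4.77, 1.06, 5.31 and 4.33 in SHR and 4.32, 3.48, 3.10 and 4.91 in WKY. The SHR values enclosed the WKY values on both sides. The log2 difference was -0.23 (SE 1.12, 95% interval -2.59 to 2.13, limma adjusted p = 0.887). Its sign depended on single rats, since it was 0.44 without SHR rat 4595 and 0.09 without WKY rat 4614.

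The level of Th relative to Dbh was therefore taken within each section, where the normalising constant cancels. The absolute size of the difference Th minus Dbh includes the efficiency of both PCR assays, and only differences between rats are read from it. As a combination of both genes it was given no test, and each rat had the same weight in its means. It averaged 7.27 ± 1.03 in the SHR rats (SD, n = 8) and 4.69 ± 0.84 in the WKY rats (SD, n = 12).

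Under Cocktail, Th minus Dbh was 5.39, 6.90, 8.47, 7.09 and 6.96 in SHR rats and 4.70, 3.90, 4.81 and 5.21 in WKY rats. Over the control procedures it was 6.80 and 8.36 in SHR Scrambled and 8.17 in SHR Sham, against 6.31, 5.47, 4.75, 4.57 and 3.99 in WKY Scrambled and 5.26, 4.15 and 3.11 in WKY Sham. In both comparisons every SHR rat lay above every WKY rat. The excess of SHR over WKY was 2.31 under Cocktail, a 4.95-fold higher ratio of Th to Dbh template, and 3.08 over the control rats, an 8.43-fold higher ratio. Taken as the average of the Scrambled and Sham means, the excess over the controls was 3.28. Among the 136 differences between any 2 of the 17 genes measured in all rats compared, 47.1% also separated the strains under Cocktail and 36.8% over the control procedures, so the separation is not a property of Th and Dbh alone.

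The excess remained between 1.93 and 2.70 under Cocktail and between 2.79 and 3.56 over the control procedures when each rat was left out in turn. Only sections with both genes measured entered it. With missing values set to the gene's lowest value, it was 1.24 under Cocktail, where the strains then overlapped, and 3.48 over the control procedures, where they did not.

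**Figure D2:**
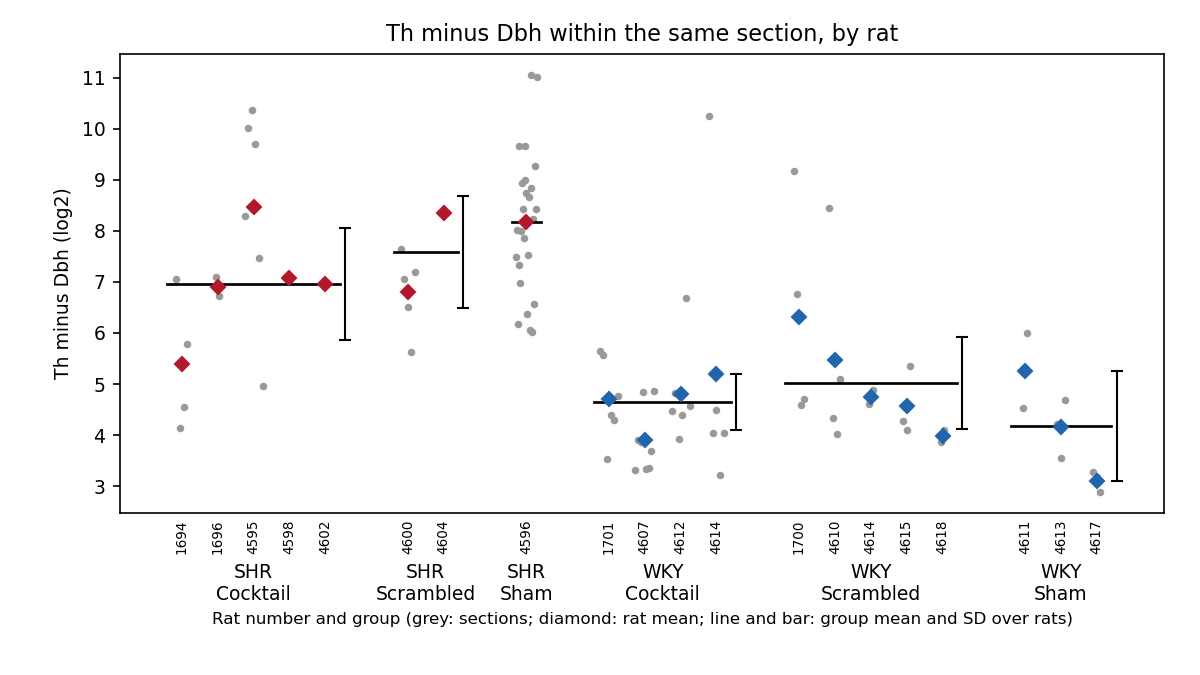
Th minus Dbh (log2, vertical axis) by rat, strain and procedure, with grey points for sections, diamonds for rat means, a line at each group mean and a bar for the SD over rats. The SHR rat means lie between 5.39 and 8.47 and the WKY rat means between 3.11 and 6.31, and within the Cocktail rats and within the control rats no SHR rat is below a WKY rat.

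Section by section, Th minus Dbh ran from 4.14 to 11.1 in SHR with a median of 7.52 (45 sections), and from 2.88 to 10.2 in WKY with a median of 4.39 (48 sections). Its middle range was 6.72 to 8.74 in SHR and 3.90 to 4.85 in WKY, from the lower to the upper quartile, so these did not meet. Sections are not replicates of a strain, and 25 of the 45 SHR sections came from SHR Sham rat 4596, with a median of 8.24. The SHR median and quartiles thus rest largely on 1 rat. Of the SHR sections, 2 lay below the WKY upper quartile, and of the WKY sections, 4 lay above the SHR lower quartile. Of those 4 WKY sections, 3 were among the sections of little template, with a median Ct above 18. Over sections, with each rat's mean removed, Th minus Dbh tended to be higher in sections with a later median Ct (Pearson r = 0.39, 93 sections of rats that share a source, as a description). Without the sections of late median Ct, the WKY median was 4.29 and the highest WKY section 6.77 (41 sections).

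The response to inhibition of both microRNAs was the question of the treatment groups. In SHR the Cocktail rats, listed above, had Dbh between -5.49 and -1.78, against -7.70 and -3.61 in the Scrambled rats. The groups overlapped, with only Cocktail rat 4595 below the higher Scrambled rat. The log2 difference was 2.80 (SE 1.31, 95% interval 0.05 to 5.55, limma p = 0.0462, adjusted p = 0.175), in a comparison where 10.5% of the genes passed the threshold and neither Th nor Dbh did. Th was between 1.06 and 5.31 in SHR Cocktail, against -1.27 and 4.75 in SHR Scrambled, and the log2 difference was 1.98 (SE 1.40, 95% interval -0.97 to 4.93, limma adjusted p = 0.332).

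These SHR estimates turned on which of the 2 Scrambled rats was used. Without rat 4600, Th was 1.03 lower in SHR Cocktail than in SHR Scrambled (log2 difference -1.03, limma adjusted p = 0.882), and without rat 4604 it was 4.99 higher (limma adjusted p = 0.0232). For Dbh the difference was 0.75 without rat 4600 and 4.85 without rat 4604 (limma adjusted p = 0.0241). In each case SHR Scrambled is then a single rat, and the p-values borrow their spread from the remaining groups. Rat 4600 supplied 14 of the 15 SHR Scrambled sections, and rat 4604 supplied 1. With every section in the fit and the rat as a random block, Th was 3.19 higher (limma adjusted p = 0.0104) and Dbh 3.35 higher (limma adjusted p = 0.0131) in SHR Cocktail. That fit used 1 correlation between sections of a rat for all genes, 0.11. The share of the variance that lay within rats was 67.6% for Th and 73.8% for Dbh. For both enzymes the fit thus treats sections of a rat as more independent than they were, and its p-values are too small to that extent.

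With the SHR Sham rat added to the controls, Dbh was 2.69 higher in SHR Cocktail (SE 1.14, 95% interval 0.30 to 5.09, limma p = 0.0298, adjusted p = 0.142) and Th 1.74 higher (SE 1.22, 95% interval -0.83 to 4.32, limma adjusted p = 0.466). Of the 19 genes, 0% passed in this comparison. The Sham rat, at 2.46 for Th and -5.33 for Dbh, lay between the Scrambled rats for both genes.

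In WKY no comparison of procedures passed for either enzyme. Dbh in WKY Cocktail exceeded WKY Scrambled by 1.06 (SE 1.05, 95% interval -1.15 to 3.26) and Th by 0.54 (SE 1.12, 95% interval -1.82 to 2.91), both at a limma adjusted p of 0.860. Against WKY Sham, the Cocktail rats were 1.38 higher for Dbh (SE 1.19, 95% interval -1.13 to 3.89) and 1.71 higher for Th (SE 1.28, 95% interval -0.98 to 4.40), both at a limma adjusted p of 0.704. The WKY Cocktail rats had the higher mean in all of these, and both comparisons had 0% of genes past the threshold. Against WKY Sham, Th did not overlap, with the lowest WKY Cocktail rat at 3.10 and the highest WKY Sham rat at 2.91, as was so for 2 of the 19 genes, 10.5%. The two-sided exact permutation test over these 7 rats gave p = 0.0571 for Th, adjusted p = 0.475. Dbh did overlap, since WKY Cocktail reached down to -1.51 and WKY Sham up to -0.39.

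An LNA with no target was set against surgery alone in WKY. Th was 1.16 higher in WKY Scrambled than in WKY Sham (SE 1.22, 95% interval -1.41 to 3.74, limma adjusted p = 0.619), and Dbh 0.32 higher (SE 1.14, 95% interval -2.08 to 2.72, limma adjusted p = 0.873), with 0% of genes past the threshold. The Dbh difference has no stable sign, as it was negative under 10 of its 24 alternatives.

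The response to Cocktail was also compared between strains, as the SHR difference from Scrambled minus the WKY difference. It was 1.74 for Dbh (SE 1.67, 95% interval -1.78 to 5.27) and 1.44 for Th (SE 1.80, 95% interval -2.34 to 5.22), both at a limma adjusted p of 0.676, with 0% of the genes past the threshold. Without rat 4600 both estimates turned negative, -0.30 for Dbh and -1.57 for Th. A strain-dependent response of either enzyme was thus not shown.

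Th and Dbh varied together over the sections of a rat. With each rat's mean removed, Pearson r was 0.67 and Spearman rho 0.65 over 90 sections of 17 rats. Sections of a rat share their source and both genes share the section's normalising constant, so these values are a description with no p. With each section centred on the median Ct of the other genes in place of the deposited constant, r was 0.70, and with Actb subtracted it was 0.71. Without any normalisation it was 0.90, a value that also carries the amount of template.

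By strain, r was 0.63 in SHR (42 sections of 5 rats) and 0.70 in WKY (48 sections of 12 rats). In the rats with at least 6 sections of both genes it was 0.40 in SHR Cocktail rat 4595 (6 sections), 0.43 in SHR Sham rat 4596 (25 sections), 0.96 in WKY Cocktail rat 1701 (6 sections), 0.85 in WKY Cocktail rat 4607 (8 sections) and 0.81 in WKY Cocktail rat 4612 (6 sections). The SHR rats had the lower Pearson coefficients of these 5, but the rank coefficient was 0.49 in SHR rat 4595 and 0.48 in WKY rat 4607, so the strains did not separate by rank. Leaving out each of the rats with most sections kept the pooled r between 0.61 and 0.72.

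**Figure D3:**
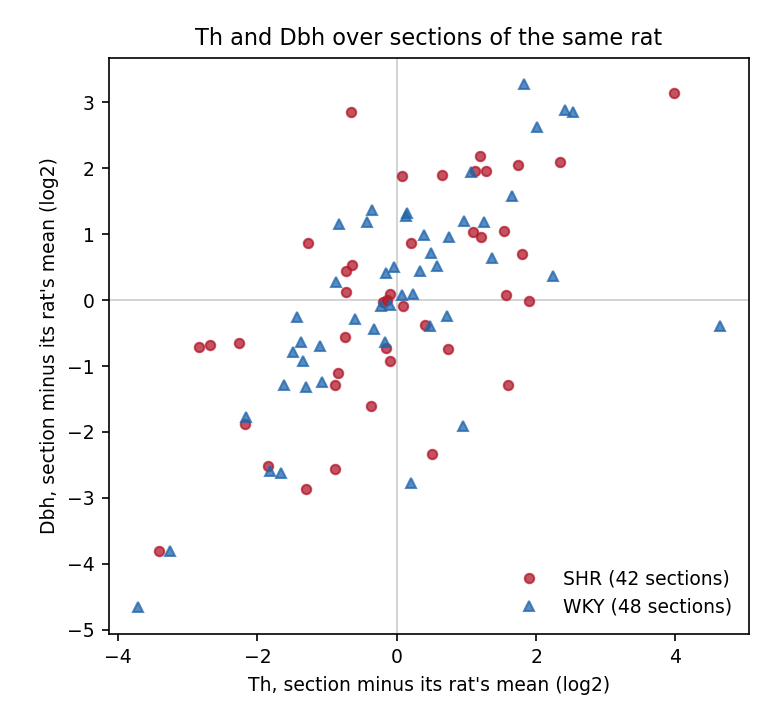
Dbh (vertical axis) against Th (horizontal axis) in 90 sections, each as the difference from its rat's mean (log2), with SHR as circles and WKY as triangles. Sections high in Th tended to be high in Dbh in both strains, with a Pearson r of 0.63 in SHR and 0.70 in WKY.

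On values centred on the other genes, the r of Th with Dbh ranked 6 from the top among the 171 pairs of genes, whose median was 0.19 and which ran from -0.50 to 0.83. Dbh was the gene most like Th. After it came Ltb4r, a leukotriene B4 receptor gene, with r = 0.63 (99 sections), Ptgr1, a prostaglandin reductase gene, with r = 0.61 (94 sections), and Rgs4, a regulator of G protein signalling, with r = 0.51 (100 sections). The lowest was Ptgs2, the inducible cyclooxygenase, with r = -0.50 (71 sections).

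The gene most like Dbh after Th was Rgs4 (r = 0.59, 93 sections), followed by EiF4e, a translation initiation factor (r = 0.44), and Jun, a subunit of AP-1 (r = 0.43, 88 sections). The lowest with Dbh was Il1a (r = -0.22), which encodes an interleukin. Fos, the other AP-1 subunit of the panel, had r = -0.17 with Th and 0.10 with Dbh, and Jun had r = -0.12 with Th. The pooled value of Fos with Dbh joins opposite signs, -0.33 in SHR and 0.56 in WKY. Fos with Th was -0.29 in SHR and -0.01 in WKY, and Jun with Th was -0.28 in SHR and 0.05 in WKY. With Th, the coefficient of Ltb4r was 0.45 in SHR and 0.79 in WKY, that of Ptgr1 0.44 in SHR and 0.79 in WKY, and that of Rgs4 0.22 in SHR and 0.81 in WKY. With Dbh, the coefficient of Rgs4 was 0.71 in SHR and 0.50 in WKY, that of EiF4e 0.50 in SHR and 0.39 in WKY, and that of Jun 0.47 in SHR and 0.40 in WKY. Ltb4r, Ptgr1 and Rgs4 with Th thus had the lower value in SHR, and Rgs4, EiF4e and Jun with Dbh the higher one. This does not describe all partners of Dbh, since Th, the gene most like it, had r = 0.66 in SHR and 0.74 in WKY. These differences were not tested.

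**Figure D4:**
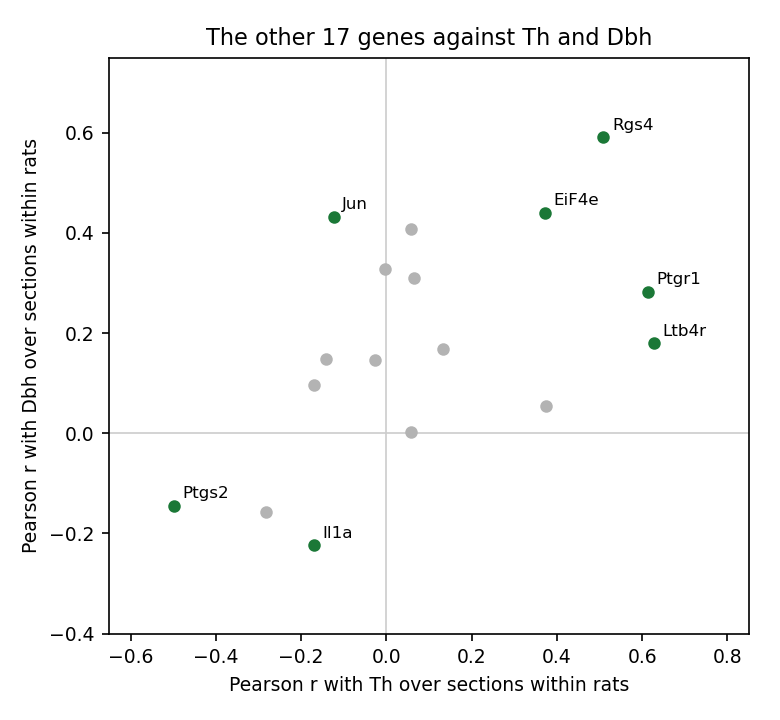
Pearson r with Dbh (vertical axis) against Pearson r with Th (horizontal axis) for each of the other 17 genes over sections, with each rat's mean removed and each section centred on the other genes, and with the named genes in green. Rgs4 is high with both enzymes, at 0.59 with Dbh and 0.51 with Th, Ltb4r and Ptgr1 stand farthest right, and Ptgs2 lies at -0.50 with Th.

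Both enzymes varied more from section to section than most of the panel. The SD of sections within a rat was 1.87 for Th and 2.02 for Dbh, rank 4 and rank 3 of the 19 genes, against a median over genes of 1.42. The SD between rats within a group was 1.29 for Th and 1.20 for Dbh, against a median of 0.56. In SHR Sham rat 4596, the rat with most sections, Th ran from -3.94 to 4.63 over 27 sections. A group mean resting on a rat with 1 section therefore carries this section spread, which applies to SHR Cocktail rats 4598 and 4602 and to SHR Scrambled rat 4604.

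Missing values were unevenly spread. In SHR Scrambled, Th was missing in 4 and Dbh in 8 of the 15 sections, 26.7% and 53.3%, all in rat 4600. Of its sections, 3 lacked both genes. In SHR Cocktail, Th was missing in 2 and Dbh in 1 of 17 sections, all in rat 4595, and in SHR Sham, Dbh was missing in 2 of 27 sections. In WKY Cocktail, Dbh was missing in 2 of 27 sections, and no value of either gene was missing in WKY Scrambled (15 sections) or WKY Sham (8 sections). A missing value can mean no product within the run or a failed reaction, and the table does not distinguish them.

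Where Dbh was missing, Th was often low. In SHR Sham rat 4596, the sections without Dbh had the lowest and second lowest Th, -3.94 and -0.65. Th was also lowest of its rat in the section without Dbh of SHR Cocktail rat 4595, at -0.50, and of WKY Cocktail rat 4607, at 0.33. Rat 4600 differed, with Th ranks of 3, 5, 6, 7 and 9 from the lowest of 10 in its sections without Dbh. In SHR Cocktail rat 4595, by contrast, the sections lacking Th had Dbh of -0.64 and -0.39, above the -10.00 to -4.30 of its sections with both genes.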

How the data were processed

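The authors deposited, per the file headers, a table of raw quantitative PCR values of 109 sections and a normalised table of the same 19 genes. Per the labels' protocols, sections of the nucleus tractus solitarius were laser-captured and amplified on BioMark microfluidic arrays with EvaGreen and intron-spanning primers for 30 cycles, and Ct values came from the Fluidigm Real-Time PCR Analysis Software. The raw Ct of the deposited table is treated as a score, and the normalised table, per its values, holds log2 values equal to minus the difference of a gene's Ct from a section constant that the authors chose. That constant equalled the section's median Ct in all 59 SHR sections and in 1 of the 50 WKY sections, with a mean difference from the median of -0.17 over the WKY sections. For 44 sections, all WKY, the normalised column matched, within the same rat, the raw column of a differently numbered section. They were used under the normalised table's names. Of the 2071 values, 160 were missing and were left out. A missing value is not a level of 0. The Th minus Dbh difference is free of the constant.

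Values were averaged over sections for each rat and compared with limma 3.58.1 in R 4.3.3 (lmFit, contrasts.fit and eBayes, two-sided, Benjamini-Hochberg over all 19 genes in each comparison, threshold 0.05), with 6 groups in 1 fit. Per the labels' animal numbers the rat is the replicate. Whether sections of a rat came from the same brain level was not given in the sources used here. For the limma and permutation comparisons of Th and Dbh over the control procedures, the Scrambled and Sham means of each strain were averaged. In Th minus Dbh each rat had the same weight. For SHR Cocktail against the SHR controls, each control rat had the same weight. Section spread was estimated with lme4 1.1.37. The limma fit was checked on simulated data for SHR against WKY under Cocktail only, with independent values for each rat. That check did not cover the other comparisons or the unequal numbers of sections per rat. Alternatives covered the normalisation, missing values, rats or sections left out, weighting by sections, the rat as a random block and exact permutation tests. The members and the gene lists were chosen with earlier results of these data known. Other genes were named only as the 3 with the highest r with Th or Dbh over sections and the lowest, with Fos and Jun from a list of AP-1 and CRE factors. All other genes enter only counts, ranks and medians over the panel.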

Additional observations from a re-analysis of the deposited data

Results flagged for a closer look

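Among the 5 SHR Cocktail rats, Dbh in rat 4595 was -5.49 on the log2 scale, far below the other SHR Cocktail rats, which lay between -2.63 and -1.78. It was the only rat so far from the others of its group for Th, Dbh or Th minus Dbh in 9 groups of rat values examined with Dixon's rule, by which chance marks about 1 in 20 groups. Its Th, 1.06, was also the lowest of the SHR Cocktail rats, and its Th minus Dbh, 8.47, the highest. Of its 9 sections, 1 lacked Dbh and 2 lacked Th. Leaving this rat out, the SHR minus WKY difference under Cocktail was -1.64 for Dbh and 0.44 for Th.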

How the results depend on the processing

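Over 441 alternative values, 400 were unchanged, 21 reversed, 16 newly passed, 2 no longer passed and 2 moved by more than the spread. Unchanged means the same direction and side of the threshold for a test. For the Th to Dbh r and Th minus Dbh, which have no test, it means a shift within the spread of rats. Only Dbh over the control procedures passed in the main fit, so most unchanged values are tests that did not pass either way. Section weighting moved the SHR calls: with the rat as a random block, Cocktail minus Scrambled was 3.19 for Th (adjusted p = 0.0104) and 3.35 for Dbh (adjusted p = 0.0131), and Cocktail minus controls 2.28 (adjusted p = 0.0275) and 2.84 (adjusted p = 0.0190), all limma. With rats weighted by sections they were 3.33, 3.27 and, for Dbh against the controls, 2.68. The random block used 1 correlation between sections of a rat for all genes, 0.11. For Th and Dbh it thus treats sections of a rat as more independent than they were. Leaving out each rat, Th ranged from -1.03 to 4.99 against Scrambled and from -0.26 to 3.75 against the controls, and Dbh from 0.75 to 4.85 and from 1.33 to 4.06.

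SHR minus WKY under Cocktail for Dbh was -2.98 with the random block, -3.33 weighted by sections, and -2.30 with only the groups compared (limma adjusted p = 0.0101) or with the exact permutation test (adjusted p = 0.0335), and from -2.62 to -1.64 leaving out each rat. It was nearer 0 without normalisation, -1.14 (limma adjusted p = 0.512), and with missing values at the lowest value, -1.74 (limma adjusted p = 0.466). For Th it was 1.27 without normalisation, 0.091 without both sets of animal number 4614, and from -0.63 to 0.44 leaving out each rat. Over the control procedures, Th was -1.82 weighted by sections (limma adjusted p = 0.0462) and from -2.23 to 0.78 leaving out each rat, and Dbh was -3.72 with the exact permutation test (adjusted p = 0.113) or, without rat 4600, -2.70 (limma adjusted p = 0.0848), and from -4.75 to -2.70 leaving out each rat.

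WKY Cocktail minus Scrambled for Th ranged from -0.085 to 1.13 leaving out each rat. WKY Scrambled minus Sham for Th was -0.17 without normalisation. For Dbh it was -1.01 without normalisation, -0.54 with Actb and -0.11 with EiF4e subtracted, -0.30 with medians over sections, -0.33 without animal number 4614, -0.026 with the random block, -0.13 weighted by sections and from -0.33 to 1.09 leaving out each rat. The difference of the strains' responses ranged from -1.57 to 4.45 for Th and from -0.30 to 3.79 for Dbh leaving out each rat. With missing values at the lowest value, the Th to Dbh r was 0.38 and the Th minus Dbh excess under Cocktail 1.24. The cause of these changes was not tested, beyond which rat or setting made them. The use of only sections with both genes, and leaving rats out of Th minus Dbh or averaging its procedure means, were chosen after seeing the data. No paired analysis was possible because the section numbers shared between groups only name sections of different rats.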

Other observations

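Animal number 4614 had the highest mean Th of both WKY groups in which it occurs, 4.91 under Cocktail and 5.74 under Scrambled, and its Dbh was -0.29 and 0.99. The Cocktail mean includes a section at 9.55 with a median Ct of 21.4, and by the median over sections the number's Th under Cocktail was 4.03, below the 4.63 of rat 1701. Without both of its sets, the SHR minus WKY Th difference under Cocktail was 0.09. Whether the number marks 1 rat or 2 was not tested.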
